A study of Mus musculus with 2 samples.

Results

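The mir-99/100, let-7 and mir-125 families occur in the mouse genome as 3 paralogous loci, each with a mir-99/100 gene, a let-7 gene and a mir-125 gene in that order. Their 9 genes were chosen by name: Mir99a, Mirlet7c-1 and Mir125b-2 on chromosome 16, Mir99b, Mirlet7e and Mir125a on chromosome 17, and Mir100, Mirlet7a-2 and Mir125b-1 on chromosome 9. They are 9 of the 2202 microRNA genes with a row in the counts, of which 817 had a count in either library. All 9 passed the minimum for detection, 10 counts in both libraries, as did 429 of the 2202 genes. Hippocampus of 10-day-old female B6CASTF1/J mice, a first-generation hybrid of C57BL/6J with CAST, was the source, and small RNA below 30 nt was sequenced. The series holds 1 group of 2 biological replicates, each a pool of 3 different females, and no treated or mutant group. Replicate 2 held 3563226 and replicate 1 held 5479267 sense-strand counts on microRNA genes. Levels are counts per 1000000 of these sense counts (CPM).

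In each locus the hairpins are thought to be cut from a shared long transcript by Drosha and then Dicer, and one strand of each hairpin is loaded into an Argonaute protein. The bases near its 5′ end, the seed, do most of the pairing with target messenger RNAs, so microRNAs with the same seed share many targets. The let-7 family promotes the exit from the progenitor state and is held back by the RNA-binding protein LIN28, the mir-125 family also targets Lin28 and acts in neuronal differentiation, and the mir-99/100 family is known for targeting the kinase mTOR. All 9 genes lie in hosts that run on the same strand. Mir99a and Mirlet7c-1 lie in introns of the non-coding gene Mir99ahg. Mir125b-2 lies in an intron of the same gene and touches an exon of the unclassified transcript C130023A14Rik. Mir99b and Mirlet7e lie in introns of Spaca6, which encodes a sperm protein, and Mir125a overlaps an exon of 1 of 3 Spaca6 transcripts over it. Mir100 and Mirlet7a-2 lie in introns of the non-coding genes 3110039I08Rik and Gm49317, and Mir125b-1 lies in introns of both and inside an exon of the sense-intronic gene Gm28119. On the opposite strand, Mir100 lies inside an exon of the lincRNA Gm48742, the protein-coding gene Gm11146 has Mir99a and Mirlet7c-1 outside its exons, and Mirlet7e lies inside the predicted microRNA gene Gm25927.

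The 5p arms, which are usually the loaded strands, show how close the paralogs are and which of them have identical copies. They were taken from RefSeq (GRCm38.p6), are written 5′ to 3′, and have the seed, bases 2 to 8, in capitals.
miR-99a-5p (Mir99a): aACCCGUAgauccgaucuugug
miR-99b-5p (Mir99b): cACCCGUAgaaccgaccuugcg
miR-100-5p (Mir100): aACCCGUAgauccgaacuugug
let-7c-5p (Mirlet7c-1): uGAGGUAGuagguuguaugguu
let-7e-5p (Mirlet7e): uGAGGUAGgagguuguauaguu
let-7a-5p (Mirlet7a-2): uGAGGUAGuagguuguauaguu
miR-125b-5p (Mir125b-2 and Mir125b-1): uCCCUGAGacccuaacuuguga
miR-125a-5p (Mir125a): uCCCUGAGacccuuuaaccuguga

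Every paralogous set had 1 seed in all 3 loci, and the differences lay outside it. Counting from 1 at the 5′ end, with the Mir99a locus as the reference, miR-100 differed from miR-99a by U16A alone, and miR-99b differed by A1C, U11A, U16C and U21C. From let-7c, let-7a differed by G19A and let-7e by U9G and G19A. The miR-125b arms of chromosomes 16 and 9 were identical, and miR-125a, at 24 nt against 22 nt, stood 3 edits away. Among annotated microRNA genes, 5 members had a 5p arm found in 1 gene only: Mir99a, Mir99b, Mirlet7e, Mir125a and Mir100. The other 4 shared it with a second gene. Mirlet7c-1 shared let-7c with Mirlet7c-2, Mirlet7a-2 shared let-7a with Mirlet7a-1, and Mir125b-2 and Mir125b-1 shared miR-125b with each other. A read with more than 1 possible origin was not counted for any gene, so these 4 genes are counted only through reads with a unique place, and their levels are lower limits on what the loci make. The 3p arms of those 4 genes, opposite the seed strand, are each found in 1 microRNA gene, and are shown because they set the copies apart.
let-7c-1-3p (Mirlet7c-1): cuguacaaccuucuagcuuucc
let-7a-2-3p (Mirlet7a-2): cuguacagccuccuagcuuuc
miR-125b-2-3p (Mir125b-2): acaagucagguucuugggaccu
miR-125b-1-3p (Mir125b-1): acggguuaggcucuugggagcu

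The counts do not separate the arms of a hairpin, so the part of each arm in a level is not known. The share of all reads that matched several places was 39.3% in replicate 2 and 43.2% in replicate 1. The 2 libraries differed by far more than counting error (chi-square of 273 per gene over 817 genes with a count), so they were not copies of 1 library. Of 12 brain and neuron microRNA genes used to check the tissue, 10 were detected, against 429 of all 2202 microRNA genes. The 12 summed to 29692 CPM in replicate 2, against 27073 CPM in replicate 1. The hepatocyte marker Mir122 stood at 34.2 and 34.7 CPM in replicates 2 and 1, and 1 of 5 muscle microRNA genes, Mir206, was detected, at 97.1 CPM in replicate 2, against 40.2 CPM in replicate 1. The other 4, the copies of Mir1a and Mir133a, had no count in either library, and they have near-identical copies, so their zeros do not show absence. Of the other marker lists, 3 of 3 oligodendrocyte genes were detected, with a summed level of 2041 and 1563 CPM in replicates 2 and 1. The endothelial Mir126a stood at 7986 and 8303 CPM in replicates 2 and 1. All 3 red cell genes were detected and summed to 64.3 and 55.5 CPM in replicates 2 and 1. The part of muscle, oligodendrocyte, endothelial and red cell RNA in the levels of the 9 genes was not tested.

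The 9 genes together held 11.3% of sense counts in replicate 2 and 9.80% in replicate 1, or 10.5% ± 1.04 (SD, n = 2). The Mir99a locus held 6.05% and 5.00%, the Mir99b locus 4.14% and 3.77%, and the Mir100 locus 1.09% and 1.03% in replicates 2 and 1. The Mir99a locus was thus the highest and the Mir100 locus the lowest in both libraries. Exact Clopper-Pearson intervals at 95% for the 9 genes were 11.2% to 11.3% in replicate 2 and 9.78% to 9.83% in replicate 1. They cover counting error only. Within the 9 genes, the Mir99a locus supplied 52.3% ± 1.85 of the counts (SD, n = 2), the Mir99b locus 37.6% ± 1.26 and the Mir100 locus 10.1% ± 0.595. These sums are of reads with a unique place, and the 5p arm lies in 1 microRNA gene for all members of the Mir99b locus and for 1 of 3 in each of the other loci. In whole tissue, fewer cells that express a gene and less RNA per cell cannot be told apart.

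**Figure D1:**
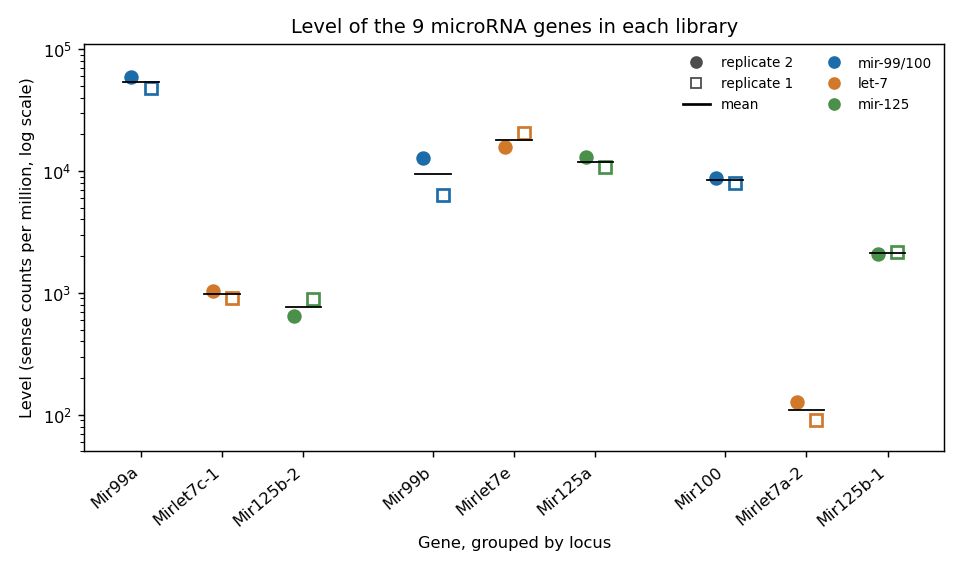
Level of each gene in CPM on a log axis, by locus, with replicate 2 as filled circles, replicate 1 as open squares and their mean as a line. Mir99a sits highest in both libraries and Mirlet7a-2 lowest, and the genes of the Mir99b locus sit close together.

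Among the mir-99/100 genes, Mir99a (ENSMUSG00000065530.1, GRCm38 chr16:77598936-77599000, plus strand) reached 58809 CPM in replicate 2, against 48217 CPM in replicate 1. It was the fourth gene of 429 detected genes by mean level and alone held 50.7% ± 2.09 of the counts of the 9 genes (SD, n = 2). Mir99b (ENSMUSG00000065396.1, chr17:17830188-17830257, plus strand) reached 12667 CPM in replicate 2, against 6299 CPM in replicate 1. Mir100 (ENSMUSG00000093011.1, chr9:41531425-41531504, plus strand) stood at 8690 and 8028 CPM in replicates 2 and 1. Mir99a was higher than both in each library, by 2.58 ± 0.51 on the log2 scale over Mir99b and 2.67 ± 0.12 over Mir100 (SD, n = 2). The order of Mir99b and Mir100 was not resolved, since Mir99b was higher by 0.54 on the log2 scale in replicate 2 and lower, at -0.35, in replicate 1. The exact 5p arm of each lies in 1 microRNA gene, but Mir99a and Mir100 share a stretch of 16 nt, and loss of reads to near-identical places was not tested.

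Among the let-7 genes, Mirlet7e (ENSMUSG00000105758.1, chr17:17830352-17830444, plus strand) reached 15636 CPM in replicate 2, against 20583 CPM in replicate 1. Mirlet7c-1 (ENSMUSG00000065557.3, chr16:77599657-77599750, plus strand) stood at 1039 and 904 CPM in replicates 2 and 1. Mirlet7a-2 (ENSMUSG00000092770.1, chr9:41536716-41536811, plus strand) had 453 counts in replicate 2 and 493 in replicate 1, which is 127 and 90.0 CPM in replicates 2 and 1. The order was the same in both libraries, with Mirlet7e above Mirlet7c-1 and Mirlet7c-1 above Mirlet7a-2. On the log2 scale Mirlet7c-1 minus Mirlet7e was -4.21 ± 0.42 and Mirlet7c-1 minus Mirlet7a-2 was 3.18 ± 0.21 (SD, n = 2). The 2 lower genes are those whose 5p arm also lies in a gene outside the loci, and the part of the uncounted reads in this gap was not tested.

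Among the mir-125 genes, Mir125a (ENSMUSG00000065479.2, chr17:17830812-17830879, plus strand) reached 13068 CPM in replicate 2, against 10822 CPM in replicate 1. Mir125b-1 (ENSMUSG00000093354.1, chr9:41581926-41582002, plus strand) stood at 2080 and 2178 CPM in replicates 2 and 1. Mir125b-2 (ENSMUSG00000065472.1, chr16:77646273-77646343, plus strand) stood at 645 and 888 CPM in replicates 2 and 1. Mir125a was the highest and Mir125b-2 the lowest in both libraries. Mir125a exceeded Mir125b-1 by 2.48 ± 0.24 on the log2 scale, and Mir125b-2 minus Mir125b-1 was -1.49 ± 0.28 (SD, n = 2). The last difference sets the only pair of members with an identical 5p arm side by side, and it rests on reads that are unique to each hairpin. It gives no ratio of the loci for the shared arm, since reads of that arm alone match both.

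**Figure D2:**
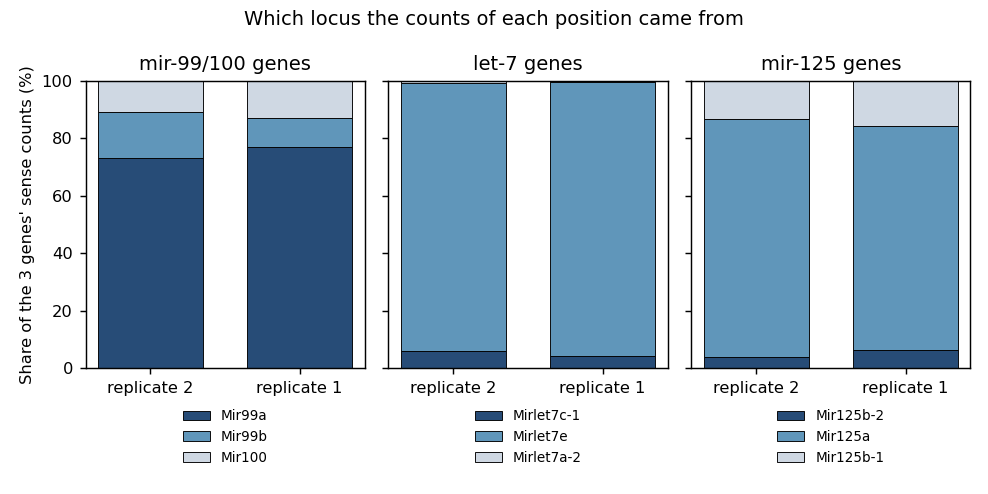
Share of each position's sense counts, in percent, that came from each of the 3 loci, for replicate 2 and replicate 1. In replicates 2 and 1 the Mir99a locus holds 73.4% and 77.1% of the mir-99/100 counts, while the Mir99b locus holds 93.1% and 95.4% of the let-7 counts and 82.7% and 77.9% of the mir-125 counts.

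In reads with a unique place, the locus that led therefore changed with the position. Mir99a held 73.4% of the mir-99/100 counts in replicate 2 and 77.1% in replicate 1. In replicates 2 and 1, Mirlet7e held 93.1% and 95.4% of the let-7 counts of the 3 loci, and Mir125a held 82.7% and 77.9% of the mir-125 counts. Mirlet7e and Mir125a are the only genes of their sets whose exact 5p arm lies in 1 microRNA gene. However, let-7e differs from let-7a by 1 base, and Mirlet7e shares a stretch of 17 nt with Mir7k. Loss of reads to near-identical places was not tested. The part of the uncounted reads in these shares was not tested. Of the spread of the 9 log2 levels around their mean, differences between positions took 38.8% of the sum of squares in replicate 2 and 30.7% in replicate 1. Differences between loci took 27.9% and 26.0% in replicates 2 and 1, which left 33.3% and 43.3%. The shares that unrelated levels would give were not set beside these, so they show no effect of position or locus. The levels of the 4 genes with a shared 5p arm are also lower limits.

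Position within a locus went with level differently in each locus, as far as reads with a unique place show. In the Mir99a locus the first gene held nearly all counts, with Mir99a at 97.2% of the locus in replicate 2 and 96.4% in replicate 1. Mirlet7c-1, 656 nt downstream of it, held 1.72% and 1.81% in replicates 2 and 1, and Mir125b-2, a further 46522 nt downstream, held 1.07% and 1.78% in replicates 2 and 1. Mir99a exceeded Mirlet7c-1 by 5.78 ± 0.06 and Mir125b-2 by 6.14 ± 0.53 on the log2 scale (SD, n = 2). Mirlet7c-1 minus Mir125b-2 was 0.69 in replicate 2 and 0.03 in replicate 1, and its mean of 0.36 was smaller than its SD of 0.47.

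In the Mir100 locus the first gene led as well. Mir100 held 79.7% of the locus in replicate 2 and 78.0% in replicate 1, Mir125b-1 held 19.1% and 21.2%, and Mirlet7a-2 held 1.17% and 0.874% in replicates 2 and 1. The middle gene, 5211 nt after Mir100 and 45114 nt before Mir125b-1, was thus the lowest. Mir100 exceeded Mirlet7a-2 by 6.29 ± 0.27 and Mir125b-1 by 1.97 ± 0.13 on the log2 scale (SD, n = 2). In both of these loci the first gene is the only member whose 5p arm lies in 1 gene.

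In the compact Mir99b locus, which spans 692 nt, the counts were spread more evenly. Mirlet7e, the middle gene, held 37.8% of the locus in replicate 2 and 54.6% in replicate 1. Mir125a held 31.6% and 28.7%, and Mir99b held 30.6% and 16.7% in replicates 2 and 1. On the log2 scale Mir99b minus Mirlet7e was -0.30 in replicate 2 and -1.71 in replicate 1, and Mir99b minus Mir125a was -0.04 and -0.78 in replicates 2 and 1. Mirlet7e exceeded Mir125a by 0.26 in replicate 2 and 0.93 in replicate 1. The means of the first 2 of these differences, -1.01 ± 0.99 and -0.41 ± 0.52 (SD, n = 2), were close to or below the spread between the libraries, and the third was 0.59 ± 0.47.

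**Figure D3:**
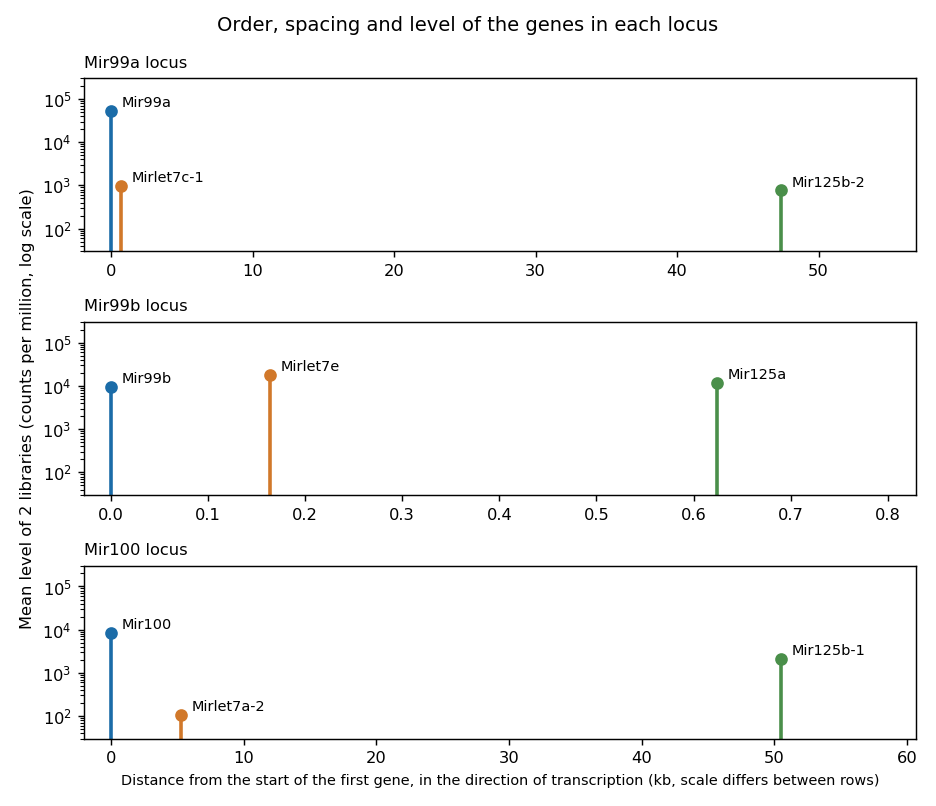
Mean level of each gene in CPM on a log axis against its distance in kb from the start of the first gene of its locus, in the direction of transcription. The 3 genes of the Mir99b locus lie within 692 nt, while the mir-125 gene lies over 45 kb from the let-7 gene in the other 2 loci.

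The differences were tested with an exact two-sided sign-flip permutation test over libraries, which cannot pass a threshold of 0.05 with 2 libraries. Its smallest possible p is 0.5, and this was the p of all 9 differences within loci and of 8 of 9 between loci. The differences between Mir99b and Mir100 had opposite signs and a p of 1. A microRNA read covers a whole arm, so counts need not grow with the annotated length, which ran from 65 nt for Mir99a to 96 nt for Mirlet7a-2. When levels were divided by that length, 6 of 9 differences within loci kept 1 sign in both libraries. The order within the Mir99b locus was then not resolved, with Mirlet7e at 168 and 221 CPM per nt in replicates 2 and 1, Mir125a at 192 and 159 and Mir99b at 181 and 90.0. Mirlet7c-1, at 11.0 and 9.61 CPM per nt in replicates 2 and 1, and Mir125b-2, at 9.09 and 12.5, also changed places between the libraries on this scale.

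The 5 genes with a 5p arm of their own ranged from 8690 to 58809 CPM in replicate 2, and in replicate 1 from 6299 to 48217 CPM. The 4 genes with a shared arm ranged from 127 to 2080 CPM and from 90.0 to 2178 CPM, so the ranges did not overlap in either library. Over all detected genes with an arm in RefSeq, where either arm was taken, the ranges of mean level overlapped. The 49 genes with any arm in more than 1 microRNA gene had a median of 65.4 CPM and ran from 2.87 to 6638 CPM. The 336 genes whose arms each lie in 1 had a median of 111 CPM and ran from 2.46 to 101435 CPM. How much of the gap among the 9 genes comes from reads without a unique place was not tested.

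The let-7 genes of the 3 loci were a small part of their family in these counts. They held 6.77% of the counts of 12 let-7 family genes in replicate 2 and 7.96% in replicate 1, and nearly all of that was Mirlet7e. By level Mirlet7e was the fifth gene of the family, Mirlet7c-1 the ninth and Mirlet7a-2 the eleventh in each library. Just above Mirlet7e stood Mirlet7d, at 20274 CPM in replicate 2, against 20956 CPM in replicate 1. The gap between their mean levels, 18109 CPM for Mirlet7e and 20614 CPM for Mirlet7d, was smaller than the SD of Mirlet7e, 3498 CPM. Each pair of genes with an identical 5p arm was uneven in reads with a unique place. Such reads give no ratio of the copies for the shared arm. Mirlet7c-1 stood below its copy Mirlet7c-2, at 3133 and 3067 CPM in replicates 2 and 1, and Mirlet7a-2 stood below its copy Mirlet7a-1, at 255 and 306 CPM in replicates 2 and 1. In the family as a whole, the 6 genes with a shared 5p arm had mean levels of 65.4 to 3100 CPM and the 6 with an arm of their own 2379 to 101435 CPM, so these ranges overlapped only between Mir98 and Mirlet7c-2.

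Of the seeds of the 3 positions, that of let-7 was carried at the highest level outside the loci, where 9 let-7 family genes held 23.1% of sense counts in replicate 2 and 24.9% in replicate 1. The mir-125 seed is shared by Mir351, which reached 1112 CPM in replicate 2, against 959 CPM in replicate 1, above Mir125b-2 and below Mir125b-1. Mir6367 and Mir6394, whose RefSeq arms carry the same seed, had no count, and a count of 0 sets an upper limit of 0.842 CPM in replicate 2, against 0.548 CPM in replicate 1, for reads with a unique place. Of the further genes with the let-7 seed, Mir1961 had no count and Mir7k had 0 and 4 counts in replicates 2 and 1. No other gene in the RefSeq table used carried the mir-99/100 seed. The related Mir10a and Mir10b, of the Hox clusters, stood at 7.02 and 10.1 CPM in replicate 2 and at 5.11 and 21.5 CPM in replicate 1. The detected genes nearest in level to the leading gene of each locus, by the summed difference of log2(CPM + 1) over both libraries, were Mir139 for Mir99a (0.30), Mir382 for Mirlet7e (0.25) and Mir126a for Mir100 (0.17).

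The libraries were then compared gene by gene, as ratios of replicate 2 over replicate 1 after TMM scaling. This compares 2 libraries, not conditions, and has no test. The size of the log2 ratio had a median of 0.22 over the 9 genes and 0.33 over all 429 detected genes. None of the 9 genes reached a 2-fold difference, against 12.1% of detected genes, and 1 of 9 reached 1.5-fold, against 30.8%. That gene was Mir99b, with 45137 counts in replicate 2 and 34512 in replicate 1. Its log2 ratio was 0.95, with an exact 95% interval of 0.93 to 0.97 for counting error alone, and 13.8% of detected genes differed at least as far. With library totals in place of TMM its fold was 2.01, so 1 of 9 then passed 2-fold, against 12.4% of detected genes.

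**Figure D4:**
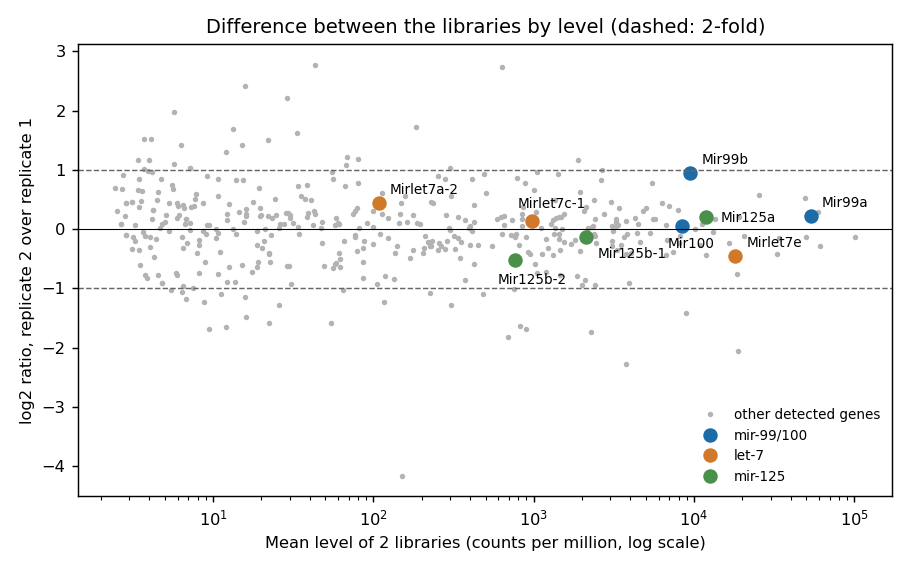
log2 ratio of replicate 2 over replicate 1 against mean level in CPM on a log axis, for the 9 genes in colour and all other detected genes in grey. The 9 genes lie between the dashed 2-fold lines, with Mir99b closest to the upper one at 0.95.

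The log2 ratios of the 3 genes of a locus did not all have 1 sign in any locus. In the Mir99b locus the log2 ratios were 0.95 for Mir99b, -0.46 for Mirlet7e and 0.21 for Mir125a. In the Mir99a locus they were 0.22 for Mir99a, 0.14 for Mirlet7c-1 and -0.52 for Mir125b-2. In the Mir100 locus they were 0.05 for Mir100, 0.44 for Mirlet7a-2 and -0.13 for Mir125b-1. Each locus thus held a gene on either side of 0, although the value for Mir100 came within 0.01 of 0 with DESeq2 size factors. How often 3 other genes would fall on both sides of 0 was not tested. By position the mir-99/100 genes had ratios above 0 in all 3 loci, also with library totals and with DESeq2 size factors, and so had 230 of 429 detected genes with TMM scaling.

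Neighbouring genes elsewhere in the data were used for scale, a comparison chosen after the counts were seen. In 111 pairs of detected microRNA genes within 10 kb on a strand, the log2 ratios of the neighbours differed by a median of 0.36. Mir99b and Mirlet7e, 94 nt apart, differed by 1.40, and 11 of the 111 pairs, themselves included, differed at least as far. Mirlet7e and Mir125a differed by 0.67, Mir100 and Mirlet7a-2 by 0.38 and Mir99a and Mirlet7c-1 by 0.09. At least as far apart as these were 41, 54 and 101 of the 111 pairs, in that order. The level differences between neighbours are given as the difference of log2 mean CPM, whose median size over the pairs was 2.45. Mir100 and Mirlet7a-2, at 6.27, were among the 5 pairs farthest apart, and Mir99a and Mirlet7c-1, at 5.78, among the 11 farthest. In both pairs the lower gene shares its 5p arm with another gene, so its level is a lower limit. The part of the uncounted reads in these gaps was not tested. The pairs of the Mir99b locus lay closer than the median, at 0.93 and 0.60.

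**Figure D5:**
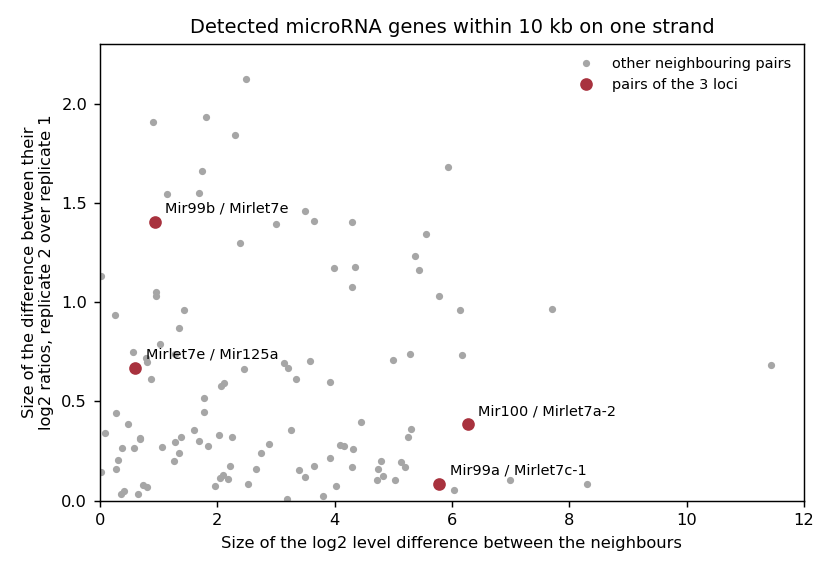
For each pair of detected microRNA genes within 10 kb on a strand, the size of the difference between their log2 ratios against the size of their log2 level difference, with the 4 pairs of the 3 loci in red. Mir99b with Mirlet7e lies at 1.40 on the vertical axis, and Mir100 with Mirlet7a-2 at 6.27 on the horizontal axis.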

How the data were processed

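The authors deposited raw counts of reads per microRNA gene, 1 file per library, with replicates not pooled. Reads were placed on mm10 and counted over GENCODE M21, per the notes deposited with each sample. Of the aligner and the counting program, the name is not given in the sources used here. Every file has counts without regard to strand and for each strand, and the strand column with the larger total over genes was taken as sense. All 2202 gene identifiers matched GENCODE M21. The 4 rows of reads without a gene were left out of totals. Reads from the CAST allele may map differently to this reference, which was not tested.

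CPM, shares, log2 level differences and log2 ratios (0.5 counts added) were computed in Python 3.11.15 with numpy 2.4.6, scipy 1.17.1 and pandas 2.3.3. TMM factors came from edgeR 4.0.16 and size factors from DESeq2 1.42.0, in R 4.3.3. The ratio step was tested on simulated data. Each mature arm was searched, exactly, in the GENCODE M21 transcripts, not in a genome. Nothing says whether spread beyond the pools of animals is technical.

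The 9 genes and the lists were chosen with earlier results of these data known. Genes named besides them were, by a rule set at the start, microRNA genes within 200 kb or opposite a member, let-7 genes, seed sharers, Mir10a, Mir10b and the nearest gene in level per locus. Alternatives were other count minimums, scalings, pseudocounts, strand columns and denominators, levels per nt, and leaving out each replicate.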

Additional observations from a re-analysis of the deposited data

Results flagged for a closer look

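A large antisense count lay opposite a member, and it holds the reads that the comparisons above use as sense counts of Mirlet7e. Gm25927, a predicted microRNA gene on chromosome 17 (17830343 to 17830459, minus strand) opposite Mirlet7e and the only other microRNA gene with a count row within 200 kb of the 9, had 55715 antisense counts in replicate 2 and 112777 in replicate 1. It had no sense count in either library, and its antisense counts equal the sense counts of Mirlet7e in each library. Mirlet7e lies wholly inside it on the other strand, so these are the same reads and not a separate signal. They made up 25.9% of the reads marked ambiguous in replicate 2 and 35.1% in replicate 1 when strand was ignored, and Mirlet7e then had 0 counts in both. Of the other 8 genes, Mir125b-2 had 1 antisense count in replicate 2, and the rest had none in either library.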

How the results depend on the processing

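Counts without regard to strand, whose total leaves out reads marked ambiguous, put the 9 genes at 9.28%, the Mir99b locus at 2.28% and the Mir100 locus at 1.13%. Mirlet7e has no count there, so its differences have no value in that setting. With all reads as the denominator the 9 genes held 3.90%, and the Mir99a, Mir99b and Mir100 loci 2.05%, 1.46% and 0.392%. The number of genes past 2-fold between the libraries was 1 with library totals, 1 at a threshold of 1.5-fold and 0 in the other settings. Per nt, log2 Mirlet7c-1 minus Mir125b-2 reversed to -0.049. Leaving out a replicate moved log2 Mir99b minus Mir100 between -0.35, without replicate 2, and 0.54, without replicate 1. The cause was not tested. Of 36 pairs among the 9 genes, 35 kept their order per nt and 35 without replicate 2. No pairing of libraries between groups was possible because the series has 1 group. Of the 9 genes Mirlet7a-2 had the fewest counts, 453 in replicate 2 and 493 in replicate 1. Reads with several places are in no count, and their number for the 4 genes with a shared arm is not known.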
